A study of Mus musculus with 8 samples.

Results

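A set of 9 genes that mark the primitive streak and the mesoderm leaving it was followed through 8 total RNA libraries. The libraries were made from mouse embryonic stem cells (mESC) grown in PrE-induce medium, which the series' title ties to development of primitive endoderm, an extraembryonic lineage of the blastocyst. The genes were chosen by name: the T-box factor T (also called Tbxt), Mixl1, Mesp1, Gsc, Evx1, Wnt3, Kdr, Lhx1 and Cdx1. All 9 were found among the 21812 gene symbols of the deposited table, T under its older name. The libraries form 4 groups of 2, labelled Mettl3 cKO, Mettl3 WT, Virma cKO and Virma WT. Both genes encode subunits of the methyltransferase that places N6-methyladenosine (m6A) on RNA: Mettl3 carries the catalytic site, and Virma holds other subunits together. The labels give the groups no other allele, agent, clone or Cre driver, and cKO is not spelled out there. Nothing in them says that the 2 libraries of a group came from separate cultures, so p-values rest on a spread that may be only technical. In bulk RNA, fewer cells of a type and less RNA per cell cannot be told apart.

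In the embryo the primitive streak forms where Wnt and Nodal signals meet at the posterior epiblast. Wnt3 is the ligand needed to start it, and T and Mixl1 are among the first transcription factors switched on in its cells. Goosecoid (Gsc) and Lhx1 mark the anterior streak and its derivatives, Evx1 the posterior streak, and Mesp1 the earliest cardiac and cranial mesoderm. Cdx1 patterns posterior tissue downstream of Wnt and retinoic acid, and Kdr, the main receptor for VEGF-A, marks the mesoderm that gives blood and endothelium. Primitive endoderm is a separate, earlier lineage.

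The table is called a raw count table, but its values had been multiplied by a factor for each library and rounded. The upper quartile over all genes was 602 or 601.25 in every library. In the 2 Mettl3 WT libraries the values up to 150 fell on only 59 and 54 of the 150 possible whole numbers, which gives 2.55 and 2.76 units for a read. The estimated depth was 17.6 M and 16.0 M reads in the Mettl3 cKO libraries, 6.70 M and 6.20 M in Mettl3 WT, 23.0 M and 22.3 M in Virma cKO, and 25.6 M and 25.0 M in Virma WT. A gene at 1 CPM therefore rests on fewest reads in Mettl3 WT. Levels below are CPM (the reads of a gene scaled to library size) with TMM scaling, in which the factor cancels, and effects are log2 fold changes of CPM + 0.5 ± SE, a scale that understates the change of low genes. In the libraries labelled Mettl3 cKO, Mettl3 itself stood at 34.9 and 33.5 CPM, against 35.5 and 34.9 CPM in Mettl3 WT (−0.04 ± 0.08, limma, adjusted p = 0.718). In those labelled Virma cKO, Virma stood at 70.7 and 73.5 CPM, against 95.2 and 90.5 CPM in Virma WT (−0.36 ± 0.04, limma, adjusted p = 2.94e-14). A level summed over a gene cannot show the loss of single exons and so does not check the labels; the group names used below are those of the labels.

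**Figure D1:**
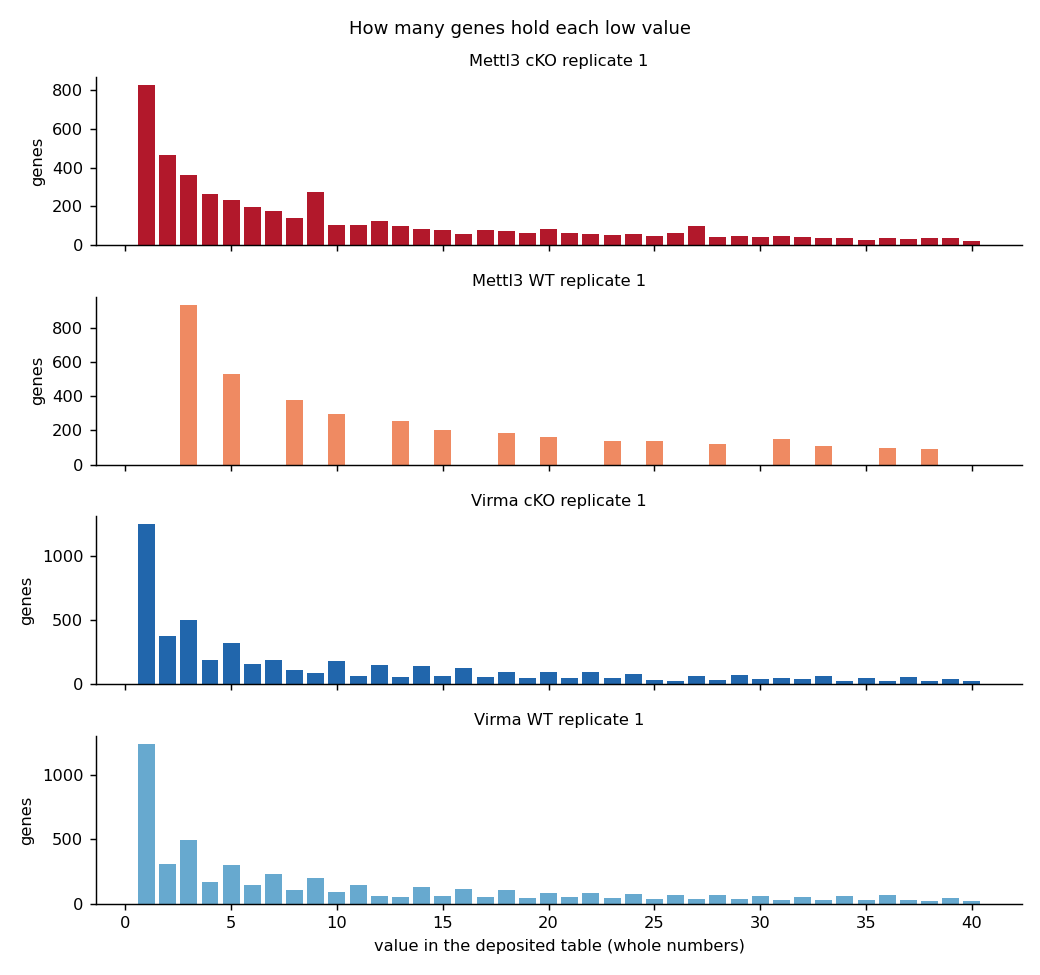
Number of genes (vertical axis) that hold each low whole number (horizontal axis, values 1 to 40 of the deposited table) in replicate 1 of the 4 groups. Many whole numbers do not occur at all in Mettl3 WT. Virma WT and Virma cKO (0.676 and 0.680 units for a read) alternate between more and less frequent numbers, where several read counts round to the same value. In Mettl3 cKO (0.947 units for a read) few numbers hold more than 1 read count.

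Promoter windows of 250 bases before to 50 bases after the gene start were found for 7 of the 9 genes in RefSeq (build GRCm38.p6), all but Mixl1 and Cdx1. The windows of T, Lhx1 and Kdr are shown because these genes fell most in Virma cKO, and that of Mesp1 because it was the other window to hold a searched motif. Capitals mark a TCF/LEF motif, searched as CTTTGAT or CTTTGAA, or a T-box motif, searched as AGGTGTNA, on both strands.
T, chr17:8434173-8434472, plus strand: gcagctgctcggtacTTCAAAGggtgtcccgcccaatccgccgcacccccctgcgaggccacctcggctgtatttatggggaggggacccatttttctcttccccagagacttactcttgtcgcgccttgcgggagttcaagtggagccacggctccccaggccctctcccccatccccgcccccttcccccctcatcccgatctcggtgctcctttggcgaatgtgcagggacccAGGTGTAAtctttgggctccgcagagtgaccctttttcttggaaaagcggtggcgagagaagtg
Lhx1, chr11:84525485-84525784, minus strand: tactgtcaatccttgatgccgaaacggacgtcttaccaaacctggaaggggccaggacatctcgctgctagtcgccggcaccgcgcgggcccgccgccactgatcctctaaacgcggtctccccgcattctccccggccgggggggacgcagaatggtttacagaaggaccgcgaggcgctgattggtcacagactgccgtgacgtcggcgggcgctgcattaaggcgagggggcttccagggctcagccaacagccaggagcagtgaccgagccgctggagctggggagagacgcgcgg
Kdr, chr5:75978406-75978705, minus strand: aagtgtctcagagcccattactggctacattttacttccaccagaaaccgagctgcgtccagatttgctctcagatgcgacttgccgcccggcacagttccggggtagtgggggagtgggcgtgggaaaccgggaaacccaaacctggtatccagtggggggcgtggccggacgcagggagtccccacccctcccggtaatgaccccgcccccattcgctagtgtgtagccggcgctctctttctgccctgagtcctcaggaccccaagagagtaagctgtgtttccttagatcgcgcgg
Mesp1, chr7:79793541-79793840, minus strand: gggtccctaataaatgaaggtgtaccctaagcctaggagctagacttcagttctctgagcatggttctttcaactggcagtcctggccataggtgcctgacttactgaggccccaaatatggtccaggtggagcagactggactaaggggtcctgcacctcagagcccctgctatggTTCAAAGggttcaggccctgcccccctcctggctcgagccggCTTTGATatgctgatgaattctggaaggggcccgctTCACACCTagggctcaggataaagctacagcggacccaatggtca

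The T window holds 1 TCF/LEF match, which starts at −235 from the gene start, and 1 T-box match at −14. The Mesp1 window holds TCF/LEF matches at −73 and −31 and a T-box match at 5. The windows of Lhx1 and Kdr hold neither motif, nor do those of Gsc, Evx1 and Wnt3. No match overlaps another. Among 27025 promoters of the same length, 8.77% hold the TCF/LEF letters and 3.03% the T-box letters. GATA letters (AGATAA or TGATAA) stand in 19% of all promoters and in none of the 7. The matches are letters only and say nothing of binding.

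**Figure D2:**
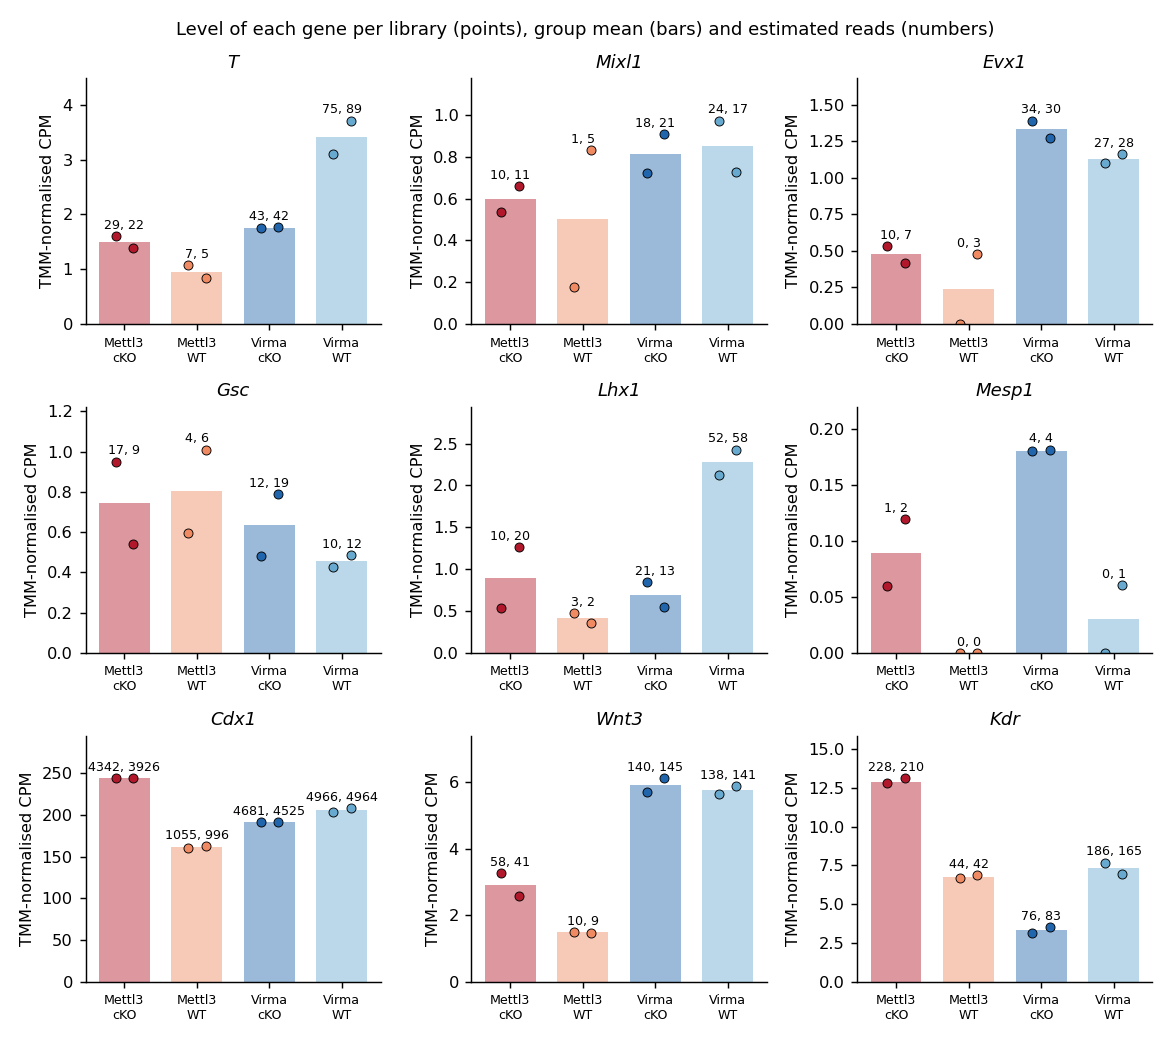
TMM-normalised CPM (vertical axis, from 0) of the 9 genes in the 4 groups. Points are the 2 libraries of a group, bars their mean, and the numbers above them the estimated reads in replicates 1 and 2. Kdr is highest in Mettl3 cKO and lowest in Virma cKO, Wnt3 is higher in both Virma groups than in both Mettl3 groups, and T and Lhx1 are highest in Virma WT.

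The first comparison asks how the streak genes stood in libraries labelled Mettl3 cKO against Mettl3 WT. Kdr, Cdx1 and Wnt3 rose, and no member fell. These are 3 of the 8 members that passed the filter of 0.5 CPM in at least 2 libraries, where 51.4% of all 14413 tested genes changed, 24.4% upward and 26.9% downward. The median effect of the 8 was 0.52, beside 0.0046 over all tested genes. Removing each library's trend with exon length and GC content lowered every member effect but that of Kdr, while the 3 calls stayed. Gsc then stood at −0.664 (limma, adjusted p = 0.0871), T at 0.304, Evx1 at 0.166, Mixl1 at 0.123, Lhx1 at 0.465 and Wnt3 at 0.645. A share of 3 in 8 is below that of all genes, and members that pass a filter through the group where they are high add to such a count.

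Wnt3, the ligand, had 3.27 and 2.58 CPM in Mettl3 cKO, against 1.49 and 1.48 CPM in Mettl3 WT. The groups did not overlap, with 58 and 41 reads in Mettl3 cKO and only 10 and 9 in Mettl3 WT. The effect was 0.78 ± 0.27 (limma, adjusted p = 0.0122). Leaving out replicate 1 of Mettl3 WT (adjusted p = 0.0763), replicate 2 of Mettl3 WT (0.0765) or replicate 1 of Mettl3 cKO (0.0726) ended the call. With Virma WT as the control in place of Mettl3 WT, its direction turned, to −0.88 (limma, adjusted p = 7.96e-08).

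Kdr, the VEGF-A receptor, had 12.8 and 13.1 CPM in Mettl3 cKO, against 6.67 and 6.88 CPM in Mettl3 WT. Reads were 228 and 210 in Mettl3 cKO and 44 and 42 in Mettl3 WT, and the groups lay far apart. The effect was 0.89 ± 0.16 (limma, adjusted p = 1.04e-06), and it was 0.79 ± 0.11 against Virma WT (adjusted p = 5.08e-11).

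Cdx1, the posterior homeobox factor, was by far the most abundant member. It had 244 CPM in each Mettl3 cKO library, against 160 and 163 CPM in Mettl3 WT, from 4342 and 3926 reads in Mettl3 cKO and 1055 and 996 in Mettl3 WT. The effect was 0.59 ± 0.04 (limma, adjusted p = 5.61e-27), smaller than that of Kdr but with the smallest SE. With each library's trend with exon length and GC content removed, it was 0.18 (adjusted p = 6.24e-05), while that of Kdr was 0.96. Against Virma WT it was 0.24 ± 0.04 (adjusted p = 6.79e-10).

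The early streak factors T, Mixl1 and Evx1 did not pass the test. T had 1.60 and 1.38 CPM in Mettl3 cKO, against 1.07 and 0.831 CPM in Mettl3 WT, from 29 and 22 reads in Mettl3 cKO and 7 and 5 in Mettl3 WT. The groups did not overlap, but the effect of 0.46 ± 0.31 had a 95% interval of −0.15 to 1.07 (limma, adjusted p = 0.215). Mixl1, a homeobox factor of the streak, had 0.534 and 0.659 CPM in Mettl3 cKO, against 0.179 and 0.831 CPM in Mettl3 WT, with an interval of −0.51 to 0.92. Its groups overlapped, and the lowest value rests on 1 read. Evx1, a homeobox factor of the posterior streak, had 0.534 and 0.419 CPM in Mettl3 cKO, against 0 and 0.475 CPM in Mettl3 WT, with an interval of −0.29 to 1.25.

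The anterior streak factors Lhx1 and Gsc did not pass either. Lhx1 had 0.534 and 1.26 CPM in Mettl3 cKO, against 0.477 and 0.356 CPM in Mettl3 WT, from 10 and 20 reads in Mettl3 cKO and 3 and 2 in Mettl3 WT. The effect was 0.56 ± 0.36 (limma, adjusted p = 0.197), and 1 library decided this value: without replicate 1 of Mettl3 cKO it was 0.94 and passed (adjusted p = 0.0389). Gsc had 0.950 and 0.539 CPM in Mettl3 cKO, against 0.596 and 1.01 CPM in Mettl3 WT, overlapping groups with an interval of −0.73 to 0.59. At 0 to 7 reads a library in Mettl3 WT, changes as small as these were not detectable for T, Evx1, Lhx1, Mixl1 and Gsc.

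The second comparison asks the same of libraries labelled Virma cKO against Virma WT. Here Lhx1, Kdr and T fell, Cdx1 fell by a small amount, and no member rose. These are 4 of 8 tested members, where 70.5% of all tested genes changed, 34.4% upward and 36.1% downward, so the members' share is below that of all genes. The median effect of the 8 was −0.07, beside −0.0055 over all genes. Scaling by total count in place of TMM moves the median of all genes to 0.14 and the calls from 4951 higher of 10160 to 6744 higher of 10339. Under it Lhx1, Kdr and T still fell, and Cdx1 stood at 0.05 (limma, adjusted p = 0.124).

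Lhx1 had 0.844 and 0.545 CPM in Virma cKO, against 2.13 and 2.43 CPM in Virma WT. Reads were 21 and 13 in Virma cKO and 52 and 58 in Virma WT, with no overlap. The effect of −1.23 ± 0.20 (limma, adjusted p = 1.65e-08) was the largest fall of any member, and in size it exceeded that of 96.6% of all tested genes.

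Kdr had 3.13 and 3.51 CPM in Virma cKO, against 7.67 and 6.94 CPM in Virma WT, from 76 and 83 reads in Virma cKO and 186 and 165 in Virma WT. The effect was −1.03 ± 0.13 (limma, adjusted p = 2.23e-12). T had 1.75 and 1.76 CPM in Virma cKO, against 3.10 and 3.71 CPM in Virma WT, from 43 and 42 reads in Virma cKO and 75 and 89 in Virma WT. The groups of both genes were well separated. The effect for T was −0.79 ± 0.16 (limma, adjusted p = 7.63e-06). Cdx1 had 192 CPM in each Virma cKO library, against 204 and 208 CPM in Virma WT, an effect of only −0.10 ± 0.03 (limma, adjusted p = 0.00195), or −0.163 with the length and GC trend removed.

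Wnt3, Evx1, Mixl1 and Gsc did not pass the test in the Virma line. Wnt3 had 5.72 and 6.12 CPM in Virma cKO, against 5.66 and 5.90 CPM in Virma WT, and the depth was enough to bound its effect at −0.20 to 0.265. Evx1 had 1.39 and 1.27 CPM in Virma cKO, against 1.10 and 1.16 CPM in Virma WT, with an interval of −0.21 to 0.55. Mixl1 had 0.723 and 0.909 CPM in Virma cKO, against 0.974 and 0.730 CPM in Virma WT, with an interval of −0.45 to 0.38. Gsc had 0.482 and 0.787 CPM in Virma cKO, against 0.426 and 0.487 CPM in Virma WT, with an interval of −0.21 to 0.68. How the fall of T in the same libraries relates to Wnt3 was not tested.

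Mesp1, the early cardiac mesoderm factor, did not pass the filter in any group. It had 1 and 2 reads in the Mettl3 cKO libraries and 0 in both Mettl3 WT libraries. It had 4 and 4 reads (0.181 and 0.182 CPM) in Virma cKO, against 0 and 1 read (0 and 0.0608 CPM) in Virma WT. The 0 of the pooled Mettl3 WT reads allows up to 0.286 CPM without TMM scaling (exact Poisson, 95%, counting error only). With no filter the fit called it in both knockout comparisons (limma, adjusted p = 0.00913 in the Mettl3 line and 0.0188 in the Virma line), on these few reads, and no fold is given.

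**Figure D3:**
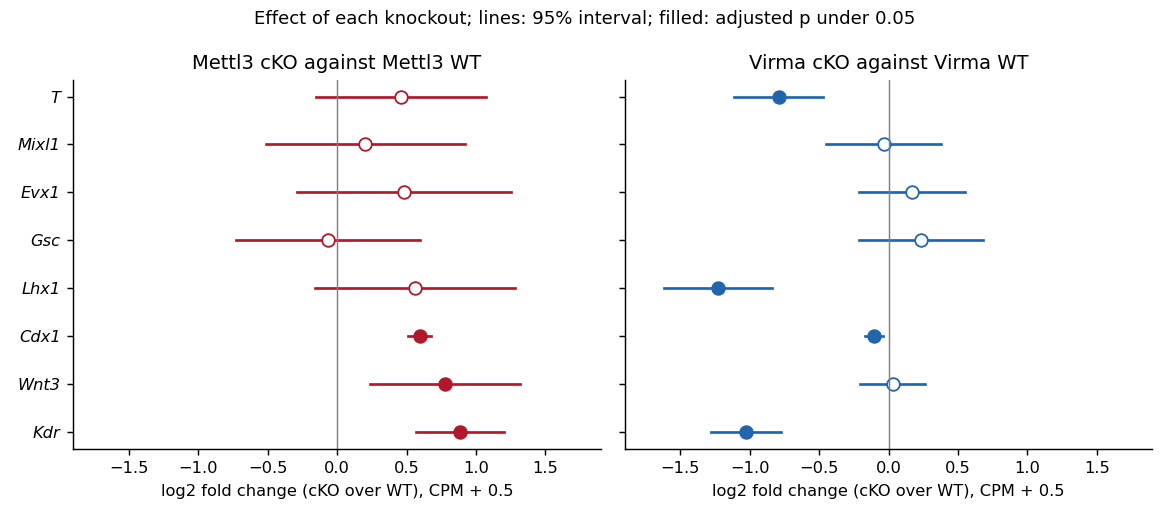
Log2 fold change of CPM + 0.5 (horizontal axis, cKO over WT) of the 8 tested genes in the Mettl3 line (left) and the Virma line (right). Points are estimates, filled where the adjusted p is under 0.05, and lines are 95% intervals. All 3 filled points lie right of 0 in the Mettl3 line (0.59 to 0.89) and all 4 lie left of 0 in the Virma line (−1.23 to −0.10).

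Whether the effects in the Virma line and the Mettl3 line differ was tested directly. The difference (Virma effect minus Mettl3 effect) was below 0 for 5 of 8 tested members, where 48.1% of all genes differed, 21.4% upward and 26.7% downward. It was −1.91 ± 0.21 for Kdr (limma, adjusted p = 9.86e-15), which rose in the Mettl3 line and fell in the Virma line. In size it stood at percentile 99.6 of all tested genes. It was −1.79 ± 0.41 for Lhx1 (adjusted p = 0.000128), −1.25 ± 0.35 for T (adjusted p = 0.00161) and −0.70 ± 0.05 for Cdx1 (adjusted p = 1.18e-24). With the length and GC trend removed, the difference for Cdx1 was −0.343 (adjusted p = 9.69e-10). For Wnt3 it was −0.745 ± 0.30 (adjusted p = 0.0305), a call lost under 9 of the alternatives (adjusted p 0.0518 to 0.122). Mixl1, Gsc and Evx1 did not pass, with intervals of −1.07 to 0.59, −0.50 to 1.10 and −1.17 to 0.55.

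The control libraries of the 2 lines differed in these genes. In Virma WT against Mettl3 WT, 5 of 8 tested members were higher and none lower, where 46.2% of all genes differed, 27.5% upward and 18.7% downward. Of the 5, Evx1 passed the filter only through the Virma libraries, where it was high. It had 0 and 0.475 CPM in Mettl3 WT and 0.534 and 0.419 CPM in Mettl3 cKO. Such a member adds to the count by the way it was selected. Wnt3 was higher by 1.66 ± 0.26 (limma, adjusted p = 2.65e-08), Lhx1 by 1.60 ± 0.34 (4.17e-05) and T by 1.43 ± 0.29 (1.64e-05). Evx1 was higher by 1.22 ± 0.37 (0.00402), a call lost without replicate 1 of Mettl3 WT (adjusted p = 0.259), and Cdx1 by 0.35 ± 0.04 (9.34e-13). Kdr (0.10 ± 0.16, adjusted p = 0.652), Mixl1 (0.50 ± 0.35) and Gsc (−0.43 ± 0.33) did not pass. For T, Lhx1 and Wnt3 these estimates were larger in size than either knockout effect on the gene. Of 13 fibroblast markers, 12 were also higher in Virma WT and 1 lower (median 1.52), with a summed level of 651 and 652 CPM in Virma WT, against 310 and 329 CPM in Mettl3 WT. Of 8 primitive endoderm markers 1 was higher and 4 were lower, and of 7 tested endothelial markers 0 were higher and 3 lower. Their part in the difference between the controls was not tested. Line, depth and any library kit that went with a line cannot be told apart here. This comparison shares the Mettl3 WT libraries with the first and the Virma WT libraries with the second. The difference of effects uses both, so these results are not independent of each other.

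Because the controls differed, the direction of several members in Mettl3 cKO depends on the control. Against Virma WT, Mettl3 cKO was lower in T (−0.97 ± 0.18, limma, adjusted p = 9.84e-07), Lhx1 (−1.04 ± 0.21, 5.37e-06), Evx1 (−0.74 ± 0.23, 0.00342) and Wnt3. Kdr and Cdx1 were higher in Mettl3 cKO against either control. For the list genes below, effects in Mettl3 cKO are against Mettl3 WT only. Some that rose there also lay higher in Virma WT than in Mettl3 cKO.

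Across the 4 groups the orders of the group means differed between members. T was highest in Virma WT (3.41 ± 0.429 CPM, SD, n = 2), followed by Virma cKO (1.75), Mettl3 cKO (1.49) and Mettl3 WT (0.952), with no overlap between neighbours. Lhx1 had the same top (2.28 ± 0.214 CPM in Virma WT), while Mettl3 cKO (0.896) and Virma cKO (0.694) overlapped and Mettl3 WT was lowest (0.416). Wnt3 stood at 5.92 ± 0.278 CPM in Virma cKO and 5.78 ± 0.170 in Virma WT, which overlapped, above 2.92 in Mettl3 cKO and 1.49 in Mettl3 WT. Kdr ran from 12.9 ± 0.165 CPM in Mettl3 cKO through 7.30 in Virma WT and 6.78 in Mettl3 WT to 3.32 in Virma cKO. Mixl1 and Gsc overlapped between most groups. Per kilobase of exon (GENCODE M21), Cdx1 had 118 CPM per kb in Virma WT, Wnt3 1.88, T 1.47, Kdr 0.809, Lhx1 0.560, Evx1 0.391, Mixl1 0.371, Gsc 0.360 and Mesp1 0.0239. Cdx1 thus stood apart from the other 8 in level per length.

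Genes whose group means followed a member most closely were ranked by the root mean square distance of centred log2 levels over the 4 groups, among 12777 tested genes. Nearest to Kdr were Cldn5, a claudin of endothelial tight junctions (distance 0.133), the secreted Wnt antagonist Sfrp5 (0.165), and Tal1, a blood and endothelial transcription factor (0.172). Tal1 averaged 15.3 CPM in Mettl3 cKO, against 9.90 in Mettl3 WT, and 3.38 CPM in Virma cKO, against 8.61 in Virma WT. Sfrp5 averaged 36.8 CPM in Mettl3 cKO, against 15.4 in Mettl3 WT, and 10.6 in Virma cKO, against 21.5 in Virma WT. Nearest to Wnt3 were Wt1 (0.0569), Fam171b (0.102) and Hoxb8 (0.108), and nearest to Cdx1 were Rwdd1 (0.0190), Mrpl20 (0.0211) and Rtn2 (0.0256). With 4 group means each, such likeness is a description only.

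**Figure D4:**
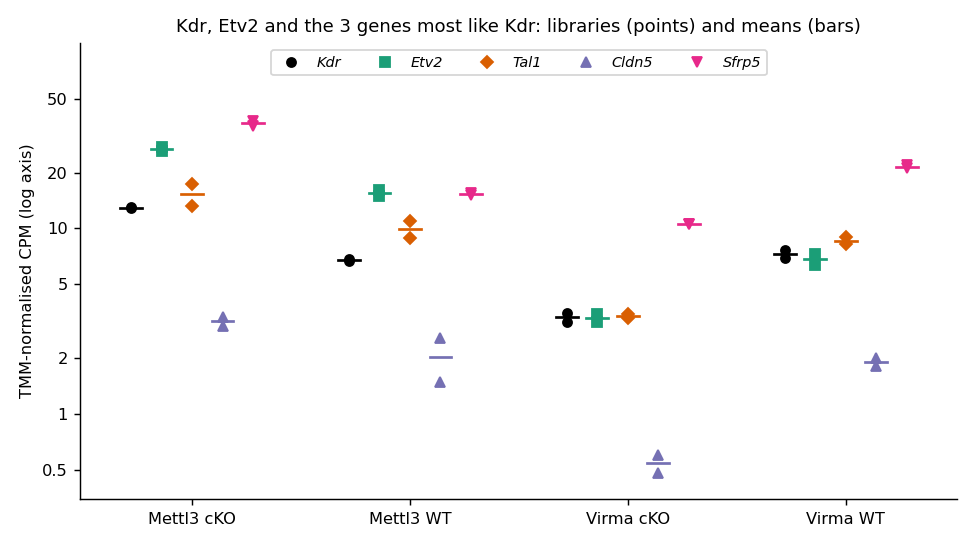
TMM-normalised CPM (vertical log axis) of Kdr, of the 3 genes nearest to it and of Etv2 in the 4 groups. Points are libraries and short bars group means. In all 5 genes the Mettl3 cKO mean lies above the Mettl3 WT mean and the Virma cKO mean below the Virma WT mean. The 3 nearest genes were picked by their closeness to the group means of Kdr, so their shared directions follow from that choice. Etv2 comes from the list of lateral, cardiac and blood mesoderm genes, of which Runx1 fell in both lines.

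Among genes of lateral, cardiac and blood mesoderm, 4 of 11 tested rose and 3 fell in Mettl3 cKO, and 2 rose and 6 fell in Virma cKO (median 0.13 in Mettl3 cKO and −0.27 in Virma cKO), or 4 and 4 in Virma cKO with total count scaling. Here and below, rose and fell mean called by limma. Over all tested genes 24.4% rose and 26.9% fell in Mettl3 cKO, and 34.4% rose and 36.1% fell in Virma cKO. A list count near these shares does not set the list apart. Etv2, the factor that acts upstream of Kdr-positive blood and endothelial progenitors, averaged 26.7 CPM in Mettl3 cKO, against 15.6 in Mettl3 WT (0.76 ± 0.11), and 3.29 CPM in Virma cKO, against 6.85 in Virma WT (−0.95 ± 0.13). Tal1 moved likewise, called in both (0.60 ± 0.14 in Mettl3 cKO and −1.23 ± 0.13 in Virma cKO). Runx1, needed for blood stem cells to form, fell in both, by 0.72 ± 0.07 in Mettl3 cKO and 2.24 ± 0.08 in Virma cKO. Hand2, a cardiac and limb factor, rose in Mettl3 cKO by 0.77 ± 0.29 and stood at 0.32 ± 0.17 in Virma cKO. Its mean in Mettl3 WT, the libraries of least depth, was only 1.19 CPM. Of 7 tested endothelial markers, 3 rose and 0 fell in Mettl3 cKO, and 1 rose and 5 fell in Virma cKO (1 and 4 with total count scaling). Their summed level was 113 and 115 CPM in Mettl3 cKO, against 100 and 94.2 CPM in Mettl3 WT, and 41.2 and 41.1 CPM in Virma cKO, against 68.7 and 63.0 CPM in Virma WT. None of the 8 markers was at 0 in a group, though Emcn stood near it (0.179 CPM in Mettl3 cKO and 0.0894 in Mettl3 WT). Their part in the Kdr result was not tested.

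Of the other VEGF ligands and receptors, 5 of 9 rose and 0 fell in Mettl3 cKO, and 5 rose and 1 fell in Virma cKO. Of all tested genes 51.4% were called in Mettl3 cKO and 70.5% in Virma cKO, so the number called is near that of all genes. The coreceptor Nrp2 rose in both (1.08 ± 0.16 in Mettl3 cKO and 0.76 ± 0.07 in Virma cKO), as did Nrp1 (0.84 ± 0.26 in Mettl3 cKO and 0.98 ± 0.10 in Virma cKO) and the ligand Vegfc (0.87 ± 0.20 in Mettl3 cKO and 0.95 ± 0.12 in Virma cKO). Vegfb fell in Virma cKO by 0.46 ± 0.05 and stood at 0.00085 ± 0.07 in Mettl3 cKO. Both neuropilins thus rose in Virma cKO, where Kdr fell, and in Mettl3 cKO, where Kdr rose. Any link between them and Kdr was not tested.

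Of the ligands and signals that act with Wnt3 in the streak, 4 of 11 rose and 1 fell in Mettl3 cKO, and 3 rose and 7 fell in Virma cKO (median 0.19 in Mettl3 cKO and −0.39 in Virma cKO). With total count scaling 3 rose and 6 fell in Virma cKO, and Lefty2 turned direction. The Nodal coreceptor Tdgf1 averaged 77.4 CPM in Virma cKO, against 180 in Virma WT (−1.21 ± 0.04), and 82.8 CPM in Mettl3 cKO, against 123 in Mettl3 WT (−0.56 ± 0.05). The Nodal antagonist Lefty1 fell by 1.14 ± 0.03 in Virma cKO and rose by 0.16 ± 0.05 in Mettl3 cKO. Bmp4, a ligand from extraembryonic ectoderm needed for mesoderm, rose in both (1.10 ± 0.15 in Mettl3 cKO and 0.68 ± 0.10 in Virma cKO). Wnt5a, a noncanonical Wnt ligand, rose by 1.01 ± 0.10 in Virma cKO.

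Of 10 other streak transcription factors, 3 rose and 2 fell in Mettl3 cKO, and 1 rose and 8 fell in Virma cKO (median 0.02 in Mettl3 cKO and −0.50 in Virma cKO). With total count scaling 1 rose and 6 fell in Virma cKO, and Foxh1 turned direction. The 1 that rose in Virma cKO was Sp5, a Wnt target and repressor of Wnt targets, at 26.9 CPM in Virma cKO against 7.82 CPM in Virma WT (1.72 ± 0.09). Sp5 also rose in Mettl3 cKO, to 11.2 and 10.8 CPM against 1.19 and 1.78 CPM in Mettl3 WT (2.55 ± 0.26). Nkx1-2 (−1.44 ± 0.10) and the endoderm factor Foxa2 (−1.32 ± 0.09) fell in Virma cKO together with T and Lhx1. In Mettl3 cKO Foxa2 fell by 0.29 ± 0.10, and Nkx1-2 stood at 0.34 ± 0.19.

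Of 10 Wnt targets and feedback genes, 4 rose and 0 fell in Mettl3 cKO, and 5 rose and 0 fell in Virma cKO. Ccnd1 (1.11 ± 0.10 in Mettl3 cKO and 0.63 ± 0.04 in Virma cKO) and Znrf3 (0.50 ± 0.13 in Mettl3 cKO and 0.62 ± 0.07 in Virma cKO) rose in both lines. Lef1 rose in Mettl3 cKO by 1.02 ± 0.31 and stood at −0.10 ± 0.10 in Virma cKO, and Rnf43 rose in Virma cKO by 0.54 ± 0.17. Of 13 Wnt receptors and secretion factors, 3 rose and 5 fell in Mettl3 cKO, and 6 rose and 5 fell in Virma cKO (8 and 4 with total count scaling). The receptor Fzd2 rose in both (1.27 ± 0.14 in Mettl3 cKO and 1.20 ± 0.07 in Virma cKO) and Fzd10 fell in both (−0.50 ± 0.10 in Mettl3 cKO and −1.16 ± 0.06 in Virma cKO). In Virma cKO Fzd6 rose by 1.04 ± 0.08 and Fzd4 fell by 0.95 ± 0.10.

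Of 10 posterior homeobox genes beside Cdx1, 7 rose and 0 fell in Mettl3 cKO, and 5 rose and 2 fell in Virma cKO (median 0.51 in Mettl3 cKO and 0.24 in Virma cKO), or 8 and 2 in Virma cKO with total count scaling. The Cdx1 paralogues Cdx4 and Cdx2 rose in Mettl3 cKO, Cdx4 to 5.01 CPM against 1.01 CPM in Mettl3 WT (1.88 ± 0.29) and Cdx2 to 8.65 CPM against 3.06 CPM in Mettl3 WT (1.36 ± 0.21). In Virma cKO Cdx4 stood at 0.15 ± 0.09 and Cdx2 at 0.05 ± 0.08. Hoxb2 rose in Mettl3 cKO (1.02 ± 0.12), and Gbx2 rose in both (0.80 ± 0.10 in Mettl3 cKO and 0.57 ± 0.05 in Virma cKO). In Virma WT the means of Cdx4 (9.61 CPM), Cdx2 (15.6 CPM) and Gbx2 (45.6 CPM, against 36.6 CPM in Mettl3 cKO) lay above those in Mettl3 cKO. The direction of these genes in Mettl3 cKO therefore depends on the control. Hoxb2 had similar means in Virma WT (26.7 CPM) and Mettl3 cKO (25.9 CPM).

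Of 14 genes of nascent and paraxial mesoderm, 10 passed the filter; 2 rose and 1 fell in Mettl3 cKO, and 1 rose and 3 fell in Virma cKO. Cyp26a1, which degrades retinoic acid, fell in both (−0.72 ± 0.04 in Mettl3 cKO and −1.65 ± 0.05 in Virma cKO), and Mesp2, a somite factor next to Mesp1 in the family, rose in both (1.06 ± 0.27 in Mettl3 cKO and 0.93 ± 0.16 in Virma cKO). Dll3 rose in Mettl3 cKO (0.90 ± 0.27), and Pcdh8 fell in Virma cKO (−1.05 ± 0.18). In Mettl3 WT, the libraries of least depth, Mesp2 had only 1.49 CPM and Dll3 1.73 ± 1.01 CPM (SD). Of 10 organizer and axial mesoderm genes, 7 passed the filter; 1 rose and 1 fell in Mettl3 cKO, and 2 rose and 3 fell in Virma cKO (3 and 3 with total count scaling). The Wnt antagonist Dkk1 averaged 2.99 CPM in Virma cKO, against 42.1 in Virma WT (−3.61 ± 0.11), and 23.3 CPM in Mettl3 cKO, against 27.8 in Mettl3 WT (−0.25 ± 0.10). Nog fell (−0.74 ± 0.22), Frzb rose (0.64 ± 0.18) and Hhex fell (−0.63 ± 0.07) in Virma cKO, and Hhex rose in Mettl3 cKO (0.32 ± 0.10). Of 9 genes of the epithelial to mesenchymal transition, 2 rose and 1 fell in Mettl3 cKO, and 5 rose and 3 fell in Virma cKO, or 5 and 1 with total count scaling, where Vim and Fn1 turned direction. Snai1 fell in both (−0.48 ± 0.10 in Mettl3 cKO and −0.99 ± 0.09 in Virma cKO), Twist1 rose in both (0.55 ± 0.13 in Mettl3 cKO and 0.32 ± 0.07 in Virma cKO), and Zeb1 (0.69 ± 0.07) and Snai2 (0.65 ± 0.15) rose in Virma cKO.

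Markers of other cell types moved with the same groups. Primitive endoderm markers were present in every group; 7 of 8 fell and 0 rose in Mettl3 cKO, and 8 of 8 fell in Virma cKO, where their summed level was 455 and 458 CPM, against 3912 and 3879 CPM in Virma WT. In Mettl3 cKO the sum was 2853 and 2857 CPM, against 4686 and 4689 CPM in Mettl3 WT. Most of each sum was 1 gene, the laminin Lama1. It averaged 288 CPM in Virma cKO, 2786 in Virma WT, 2110 in Mettl3 cKO and 3617 in Mettl3 WT. Of 8 pluripotency markers, 3 rose and 4 fell in Mettl3 cKO, and 1 rose and 7 fell in Virma cKO (1 and 4 with total count scaling, where Sox2 turned direction). Their sum was 1809 and 1866 CPM in Mettl3 cKO, against 1944 and 1956 CPM in Mettl3 WT, and 1204 and 1215 CPM in Virma cKO, against 1981 and 2015 CPM in Virma WT. Of 13 fibroblast markers, 10 rose and 0 fell in Mettl3 cKO, with a summed level of 527 and 535 CPM, against 310 and 329 CPM in Mettl3 WT. In Virma cKO 12 rose and 0 fell, with 1323 and 1311 CPM, against 651 and 652 CPM in Virma WT. Of 7 tested neural markers, 0 rose and 2 fell in Mettl3 cKO, and 1 rose and 2 fell in Virma cKO (2 and 1 with total count scaling), and their sum was 54.3 to 72.0 CPM in all 8 libraries. None of these markers was at 0 in both libraries of a group. The part of these cells in the results on the streak genes was not tested. The pathway and member lists hold genes, such as Kdr, Twist1, Snai2 and the Hox genes, that mesenchymal or endothelial cells also use. They also hold the endoderm factor Foxa2, and Foxa2, Lhx1, Hhex and Dkk1 fell in Virma cKO together with the primitive endoderm markers. Foxa1, of the organizer list, stood at 0.21 ± 0.11 there. In Mettl3 cKO, where 7 of 8 of those markers also fell, Foxa2 (−0.29 ± 0.10) and Dkk1 (−0.25 ± 0.10) fell. Hhex rose there (0.32 ± 0.10), and Lhx1 stood at 0.56 ± 0.36. Whether the falls in Virma cKO go with fewer endoderm cells was not tested.

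The transcripts of the 9 genes were compared with those of 14316 tested genes in GENCODE M21. In GC content 7 of 9 were above the median of 50.7%, with Gsc (66.6%), Mesp1 (63.1%), Cdx1 (62.1%) and Evx1 (61.2%) at percentile 96.9 or higher and Mixl1 (48.5%) and Kdr (49.4%) below the median. The letters GGACT, a common context of m6A, were above the median density of 1.05 per kb in 6 of 9, most in Gsc (3.94) and Cdx1 (2.86), and below it in T (0.978), Wnt3 (0.975) and Lhx1 (1.04). Of the 4 that fell in Virma cKO, T and Lhx1 were near the median density, and Kdr (1.69) and Cdx1 were above it. m6A itself was not measured in these libraries.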

How the data were processed

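RNA came from TRIzol extracts, and library kits of Takara (SMARTer) and Vazyme (VAHTS) were used, per the labels' protocols. Sources used here do not give the kit of each library, the strand setting or the gene annotation. Per the submitters' processing notes, STAR 2.7.11b, Subread, FastQC 0.12.1, Trim Galore and DESeq2 were used, on mm39. The deposited table is a whole-number signal: the authors' values per gene are counts scaled by 1 factor per library and rounded, as the values show. Reads were estimated from the spacing of low values and are approximate where a unit is more than 1 read. Because the values are not counts, the planned edgeR test was replaced, after the files were seen, by limma 3.58.1 (R 4.3.3) on log2(TMM-normalised CPM + 0.5), with precision weights by the trend of the spread within each group and robust moderation. The weighted fit was tested on simulated data of the same depths, in which only a small set of genes of at least 1 CPM changed. That test does not cover members of lower level or data in which most genes change. All 4 groups shared the fit, genes needed 0.5 CPM in 2 libraries, and p-values were adjusted by Benjamini-Hochberg over 14413 genes, with a threshold of 0.05. Each group has 2 libraries. On estimated reads every pair differed by more than sampling noise (chi-square per degree of freedom 1.08 in Mettl3 WT, the lowest, to 1.91 in Virma WT; 1.33 in Virma cKO, where the deposited values give 0.914), so all 8 libraries entered separately. Named are all 9 members, up to 4 called genes of each pathway list with the largest effect and at least 1 CPM in a group (1 such gene is not reported here), and the 3 genes most like each of the 3 most abundant members. The members and lists were chosen with earlier results of these data known. Lists are described by counts and medians with no test. Transcript lengths and letters are from GENCODE M21 (GRCm38), which is not the authors' build; of the symbols, 21144 were found directly, 408 by an older name and 260 not at all. Poisson intervals cover counting error only.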

Additional observations from a re-analysis of the deposited data

Results flagged for a closer look

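For 5 genes the effect of the Virma knockout label differed from that of the Mettl3 knockout label by a test of the difference itself (limma, contrast of both effects, adjusted over all genes). The difference in log2 fold change, Virma minus Mettl3, was −1.91 for Kdr, −1.79 for Lhx1, −1.25 for T, −0.745 for Wnt3 and −0.699 for Cdx1. The effects in the Virma line were −1.03 for Kdr, −1.23 for Lhx1, −0.79 for T, 0.03 for Wnt3 and −0.10 for Cdx1, and those in the Mettl3 line 0.89 for Kdr, 0.56 for Lhx1, 0.46 for T, 0.78 for Wnt3 and 0.59 for Cdx1. The Mettl3 effects of Lhx1 and T and the Virma effect of Wnt3 did not pass the test on their own. With the length and GC trend removed, the Cdx1 difference was −0.343, from effects of −0.163 in the Virma line and 0.18 in the Mettl3 line.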

How the results depend on the processing

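The planned DESeq2 fit was not run because the values are not counts; median-of-ratios size factors were computed directly. With Virma WT as control for Mettl3 cKO, 6 members were called, 2 of them higher, and T (−0.97), Mixl1 (−0.30), Gsc (0.36), Evx1 (−0.74), Wnt3 (−0.88) and Lhx1 (−1.04) turned direction. Of the member effects over all settings, this one included, 653 kept direction and side of the threshold, 18 turned direction (these among them), 14 lost and 1 gained a call. Leaving out each library gave, in the Mettl3 comparison, −0.27 to 0.70 for Mixl1 and −0.31 to 0.18 for Gsc; in the Virma comparison, −0.167 to 0.0939 for Mixl1 and −0.0127 to 0.0758 for Wnt3; and in the difference of effects, −0.72 to 0.25 for Mixl1 and −0.79 to 0.18 for Evx1. In the Virma comparison total count scaling gave 0.0613 for Mixl1 and 0.0522 for Cdx1, and the Virma cKO pair as 1 sample gave 0.00503 for Mixl1. With the length and GC trend removed, Kdr was −0.0171 between the controls. Of these turned values, T, Evx1, Wnt3 and Lhx1 against Virma WT passed the test. The causes were not tested. Members called, leaving out each library, were 2 to 3, 4, 4 to 5 and 4 to 5 in the 4 comparisons. Total count scaling also moved the calls in the difference of effects to 4258 higher of 7015, from 3082 higher of 6927; the length and GC trend moved those between the controls to 2993 higher of 6469, from 3957 higher of 6654. With the replicate number as a block 7518, 10245, 7050 and 6822 genes were called and the same number of members in each comparison. Deviations of same-numbered libraries correlated at −0.02 to 0.03 over all tested genes and at −0.0131 to 0.159 over genes of at least 10 CPM, so not every pair exceeded 0.1 and the numbers were not taken to pair the libraries. Depth in Mettl3 WT limits T, Mixl1, Evx1, Gsc, Lhx1 and Mesp1 most.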
